A study of Homo sapiens with 6 samples.

Results

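The 9 genes described here encode the receptors, synthases and breakdown proteins of hyaluronan, and were taken from a deposited expression table of 24580 gene rows by their symbols, CD44, HMMR, HAS1, HAS2, HAS3, HYAL1, HYAL2, HYAL3 and CEMIP. Each symbol had exactly 1 row. The study sequenced RNA of LoVo, an established colorectal cancer line labelled wildtype, and of LoVo-HM, labelled as a subline of it with high metastatic capacity. Both groups were untreated and had 3 libraries each, 6 in all. How the subline was obtained is not in the labels, nor whether it is 1 clone, or whether the libraries of a group came from separate cultures, so p-values measure only the spread between these libraries, which may be technical.

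Hyaluronan is a long unbranched sugar polymer of the extracellular matrix, built from alternating glucuronic acid and N-acetylglucosamine. Synthases of the HAS family make it at the plasma membrane from nucleotide sugars and push it out of the cell, hyaluronidases of the HYAL family and the secreted CEMIP protein take part in cutting it, and CD44 is its main cell surface receptor. In the intestine CD44 is known as a protein of the crypt base and a target of Wnt signalling, and in carcinomas its splice variants have been studied in connection with spread. HMMR, also called RHAMM, binds hyaluronan outside the cell and spindle microtubules inside it.

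Levels are in FPKM, which divides the fragments of a gene by its transcript length and by the mapped fragments of its library, so levels of different genes are compared per length. Values after ± are SDs over n = 3 libraries, and each log2 difference subtracts the LoVo mean of log2(FPKM + 1) from that of LoVo-HM and is given ± SE. This scale understates the change of low genes. The 14487 genes whose 6 libraries averaged 0.5 FPKM or more were tested with limma, and p-values were adjusted over them by the Benjamini-Hochberg method, with a threshold of 0.05. The libraries had totals of 424624 to 439082 FPKM, read depth is unknown, and Pearson correlations across tested genes were 0.991 to 0.993 within a group and 0.936 to 0.938 between groups. Of 12 colon epithelial markers, CDX1 and VIL1 were listed at 0 in every library, and CEACAM5, CDH17 and LGALS4 were at most 0.245 FPKM in any library. All 7 others passed the test. EPCAM, from 128 to 51.7 FPKM, and CDH1, from 48.0 to 7.91 FPKM, were lower in LoVo-HM. CDX2 (8.39 to 14.7 FPKM), KRT8 (1199 to 1348 FPKM), KRT18 (549 to 859 FPKM) and KRT19 (105 to 389 FPKM) were higher, KRT8 not under quantile normalization. KRT20, at 0 in LoVo and 2.92 ± 0.475 FPKM in LoVo-HM, passed the filter on low values only through LoVo-HM. The part of these markers in the results below was not tested. Listed at 0 in all 6 libraries were 1 of 10 immune markers (PTPRC) and 3 of 8 endothelial markers (PECAM1, KDR and EMCN). So were 3 of 10 fibroblast markers (COL1A2, FAP and POSTN). The immune marker CD68 was lower in LoVo-HM, its mean going from 3.44 ± 0.0379 to 2.55 ± 0.265 FPKM. This call was lost under quantile normalization and without LoVo-HM replicate 1. The fibroblast marker COL1A1 did not pass, its mean going from 5.62 ± 0.801 to 4.75 ± 0.436 FPKM. COL3A1, the other tested fibroblast marker, was higher in LoVo-HM, from 0.624 ± 0.102 to 38.3 ± 2.38 FPKM (4.60 ± 0.079, limma adjusted p = 1.44e-09). No untested marker of these lists exceeded 0.478 FPKM in any library. The summed fibroblast list was 5.39 to 7.10 FPKM in the LoVo libraries and 41.2 to 45.9 FPKM in those of LoVo-HM, where COL3A1 alone stood at 38.3 ± 2.38 FPKM.

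LoVo-HM had more CD44 transcript than LoVo, less of the synthases HAS2 and HAS3, far less CEMIP, and slightly less HMMR and more HYAL2. CD44 was 2.28 times as high, HAS3 was 6.39-fold lower, CEMIP 14.9-fold lower and HAS2 1.73-fold lower by the ratio of mean FPKM. In RNA of whole cultures, fewer cells with a transcript and less of it per cell cannot be told apart. Of the 9 genes 7 were abundant enough to test, and 6 of these passed the threshold, 2 higher and 4 lower, where 44.9% of all tested genes passed, 21.8% higher and 23.1% lower. CD44, HAS3 and CEMIP, 3 of the 7, changed at least 2-fold on the log2(FPKM + 1) scale, as did 6.56% of all tested genes. The 1 gene higher by that margin stood beside 2.37% of tested genes, and the 2 lower beside 4.18%. Groups did not overlap for the same 6 genes, and for 55% of the tested genes. The 6 calls fell to 3 without LoVo replicate 3 and to 3 without LoVo-HM replicate 2, when the calls of HMMR, HAS2 and HYAL2 were lost. HAS1 and HYAL1 were too low to test. CEMIP passed the filter on low values only through LoVo.

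**Figure D1:**
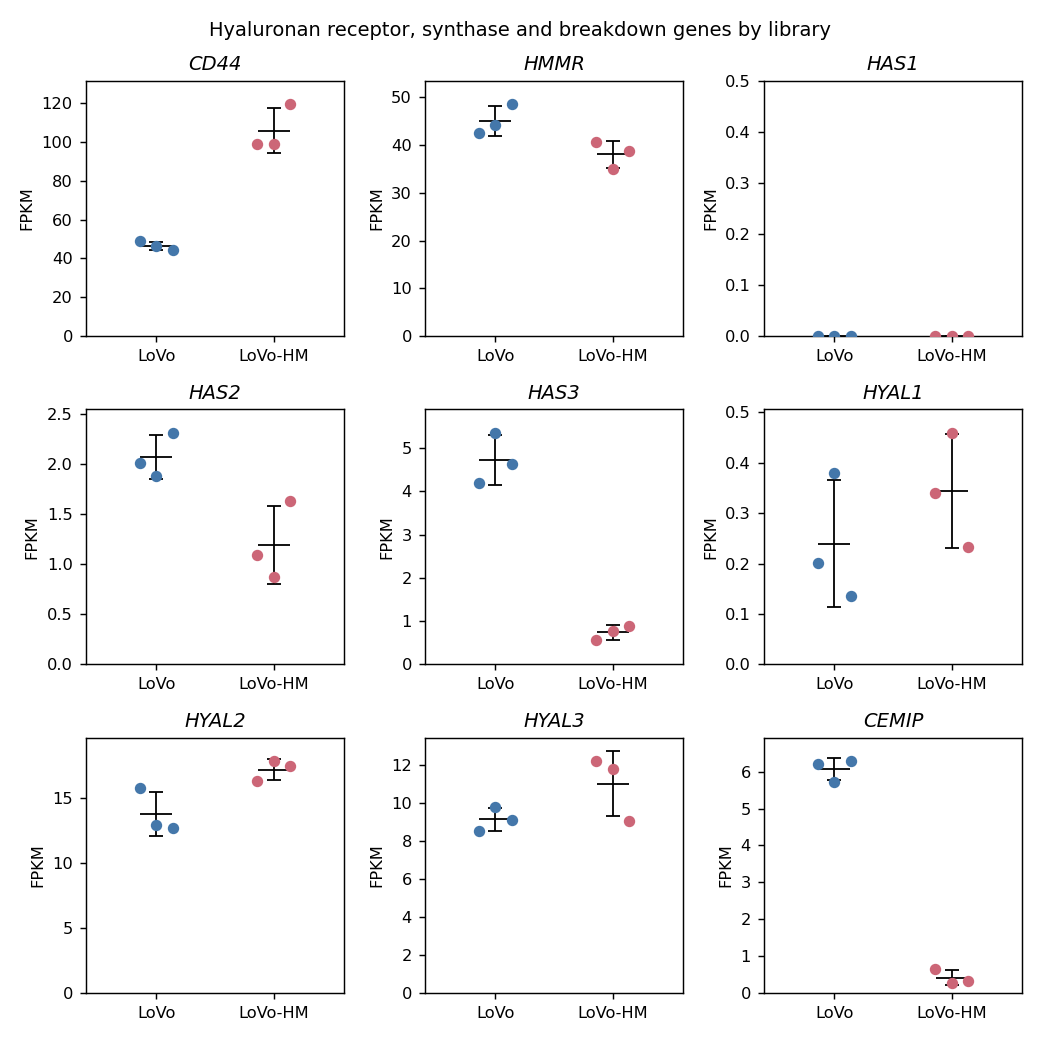
FPKM of the 9 genes (y axes, linear from 0, a different range in each panel) in the 3 LoVo and 3 LoVo-HM libraries (points), with the group mean and SD as a horizontal line and error bar. CD44 points of LoVo-HM (99.1 to 119 FPKM) lie above those of LoVo (44.2 to 48.7 FPKM), those of HAS3 and CEMIP lie far below, and all 6 points of HAS1 are at 0.

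CD44 (ENSG00000026508, chromosome 11, 35138870 to 35232402, plus strand) encodes a single-pass membrane protein that binds hyaluronan with its outer domain and the actin cytoskeleton through linker proteins inside the cell. Its level was 48.7, 46.3 and 44.2 FPKM in LoVo replicates 1, 2 and 3, and 99.1, 99.1 and 119 FPKM in LoVo-HM replicates 1, 2 and 3. Every LoVo-HM library stood far above every LoVo library, and LoVo-HM replicate 3 stood above the other two. Mean levels were 46.4 ± 2.23 and 106 ± 11.7 FPKM, a log2 difference of 1.17 ± 0.077 (95% interval 0.99 to 1.34, limma adjusted p = 4.93e-06). Among the tested genes, 90.3% had a lower mean than CD44 in LoVo and 96.8% in LoVo-HM. GENCODE 29 lists 39 transcripts of CD44, 26 of them protein-coding, and the table gives 1 value for the gene, so the standard and variant isoforms were not measured separately.

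HMMR (ENSG00000072571, chromosome 5, 163460203 to 163491945, plus strand), the other receptor, stood at 42.5, 44.2 and 48.6 FPKM in the LoVo libraries and at 40.6, 35.0 and 38.7 FPKM in the LoVo-HM libraries. The groups did not overlap, but the gap between the nearest libraries was small beside the range within each line. The means were 45.1 ± 3.15 and 38.1 ± 2.88 FPKM, a log2 difference of -0.24 ± 0.071 (95% interval -0.40 to -0.08, limma adjusted p = 0.0243). The call was lost without LoVo replicate 2 (adjusted p = 0.0529), LoVo replicate 3 (0.0810) or LoVo-HM replicate 2 (0.0718), without a filter on low values (0.0511) and without a variance trend (0.0509), always with a lower mean in LoVo-HM. The 2 receptors were at nearly the same level per length in LoVo, where their ranges overlapped and the ratio of CD44 to HMMR was 1.15, 1.05 and 0.910. In LoVo-HM that ratio was 2.44, 2.83 and 3.08, so CD44 was ahead of HMMR in each of its libraries. The antisense gene HMMR-AS1 overlaps 8881 bases of HMMR and CD44-AS1 overlaps 4643 bases of CD44. Neither has a row in the table. The strand setting of the counting is not given, so reads of the opposite strand could be part of either value. The same holds for HAS2, HAS3 and CEMIP below.

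Both synthase genes with detected transcript fell. HAS3 (ENSG00000103044, chromosome 16, 69105564 to 69118719, plus strand), whose enzyme is known for making shorter chains than HAS2, was at 4.20, 5.36 and 4.63 FPKM in LoVo and at 0.565, 0.763 and 0.891 FPKM in LoVo-HM. Each LoVo library was above 4 FPKM and each LoVo-HM library below 1 FPKM. The means were 4.73 ± 0.586 and 0.740 ± 0.164 FPKM, a log2 difference of -1.72 ± 0.114 (95% interval -1.98 to -1.46, limma adjusted p = 5.06e-06), which became -2.54 with a pseudocount of 0.1. The last exon of HAS3 shares 710 bases with CHTF8 on the opposite strand, and CHTF8 did not pass the threshold, at 31.3 ± 1.88 and 34.7 ± 0.318 FPKM. CHTF8 was far above HAS3 in both lines, so its reads could be part of the low HAS3 values.

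HAS2 (ENSG00000170961, chromosome 8, 121612116 to 121641390, minus strand), the synthase known for long chains and for its need in the embryonic heart, was at 2.01, 1.89 and 2.31 FPKM in LoVo. In LoVo-HM it was at 1.09, 0.869 and 1.63 FPKM. LoVo-HM replicate 3 came closest to the LoVo libraries, and the groups did not overlap. The means were 2.07 ± 0.220 and 1.20 ± 0.389 FPKM, a log2 difference of -0.49 ± 0.137 (95% interval -0.81 to -0.18, limma adjusted p = 0.0180). This call was lost without LoVo replicate 3 (adjusted p = 0.0614), LoVo-HM replicate 1 (0.0548) or LoVo-HM replicate 2 (0.0555). HAS2-AS1, on the opposite strand and with no row in the table, overlaps 2098 bases of HAS2. HAS1 (ENSG00000105509, chromosome 19, 51713112 to 51723994, minus strand), the remaining synthase, was listed at 0 in all 6 libraries.

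Summed over the synthases, the level was 6.21, 7.24 and 6.95 FPKM in the LoVo libraries and 1.66, 1.63 and 2.52 FPKM in the subline. HAS3 was the more abundant synthase in every LoVo library, with a share of 69.4 ± 3.96% of the sum, and had a share of 38.7 ± 7.00% in LoVo-HM. In LoVo the ranges of HAS3 and HAS2 were apart, with HAS3 above HAS2. In LoVo-HM, HAS2 had the higher mean and exceeded HAS3 within each of the 3 libraries, with HAS3 to HAS2 ratios of 0.516, 0.878 and 0.547. Their ranges over the libraries overlapped, and this order was not tested.

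CEMIP (ENSG00000103888, chromosome 15, 80779343 to 80951776, plus strand), also called KIAA1199, encodes a secreted protein that binds hyaluronan and is needed for its cutting in several cell types. It was at 6.20, 5.73 and 6.29 FPKM in LoVo and at 0.639, 0.276 and 0.310 FPKM in LoVo-HM. Every LoVo library was near 6 FPKM and every LoVo-HM library was under 1 FPKM. The means were 6.07 ± 0.300 and 0.409 ± 0.201 FPKM, a log2 difference of -2.34 ± 0.115 (95% interval -2.60 to -2.07, limma adjusted p = 7.62e-07), the largest of the 7 tested genes in size. With a pseudocount of 0.1 the log2 difference was -3.67. AC027808.1 and AC027808.2, antisense genes with no row in the table, overlap CEMIP over 52678 and 13587 bases. The far end of CEMIP shares 5488 bases with MESD on the opposite strand, which did not pass the threshold, at 13.9 ± 0.606 and 13.1 ± 0.731 FPKM.

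The hyaluronidase genes moved little by comparison. HYAL2 (ENSG00000068001, chromosome 3, 50317790 to 50322906, minus strand), whose enzyme is anchored to the cell surface and cuts long chains, was at 15.7, 12.9 and 12.7 FPKM in LoVo and 16.3, 17.8 and 17.4 FPKM in LoVo-HM. LoVo replicate 1 lay close to the LoVo-HM libraries and the other LoVo libraries lay lower. The means were 13.8 ± 1.70 and 17.2 ± 0.792 FPKM, a log2 difference of 0.30 ± 0.085 (95% interval 0.11 to 0.50, limma adjusted p = 0.0188). The call was lost without LoVo replicate 2 (adjusted p = 0.0679), LoVo replicate 3 (0.0646), LoVo-HM replicate 2 (0.0589) or LoVo-HM replicate 3 (0.0502). HYAL2 shares 2880 bases with TUSC2 on the same strand, at 19.2 ± 0.650 and 17.5 ± 1.49 FPKM, so reads of the pair could be split between them.

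HYAL3 (ENSG00000186792, chromosome 3, 50292831 to 50299468, minus strand), a relative of HYAL2 with little known activity of its own, was at 8.56, 9.79 and 9.09 FPKM in LoVo and 12.2, 11.8 and 9.06 FPKM in LoVo-HM. LoVo-HM replicate 3 lay within the LoVo range. HYAL3 did not pass the threshold, with means of 9.15 ± 0.618 and 11.0 ± 1.71 FPKM and a log2 difference of 0.24 ± 0.108 (95% interval -0.01 to 0.48, limma adjusted p = 0.108), and passed it without LoVo-HM replicate 3 (0.36, adjusted p = 0.00804). NAA80, an acetyltransferase gene for actin, lies within HYAL3 on the same strand over 3020 bases and did not pass either, at 5.31 ± 0.879 and 6.39 ± 0.959 FPKM, so the value of HYAL3 is uncertain. HYAL1 (ENSG00000114378, chromosome 3, 50299889 to 50312381, minus strand), the lysosomal hyaluronidase, was at 0.202, 0.380 and 0.136 FPKM in LoVo and 0.340, 0.460 and 0.233 FPKM in LoVo-HM. These ranges overlapped and HYAL1 was not tested.

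The 3 hyaluronidase genes lie close together, and their 14 listed neighbours in the same region of chromosome 3 had 10 tested genes, of which 3 rose, none fell and 7 did not pass, 30% called beside 44.9% of all tested genes. Those that rose were GNAI2 (0.27 ± 0.044), RASSF1 (0.31 ± 0.069) and TMEM115 (0.18 ± 0.054), the last of which did not pass without LoVo replicate 1 or 2 or LoVo-HM replicate 1 or 2 (limma adjusted p = 0.0533 to 0.0812), and IFRD2, which overlaps the end of HYAL3 by 88 bases, did not pass (0.08 ± 0.058). The median log2 difference of the 10 was 0.13, and that of all tested genes was 0.003. Summed hyaluronidase levels were 23.2 ± 1.28 FPKM for LoVo and 28.6 ± 1.70 FPKM for LoVo-HM, with 21.9 to 24.5 and 26.7 to 30.1 FPKM over the libraries. With CEMIP added the sums were 29.2 ± 1.29 and 29.0 ± 1.73 FPKM and overlapped, while the share of CEMIP in them was 20.8 ± 1.30% in LoVo and 1.41 ± 0.668% in LoVo-HM.

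**Figure D2:**
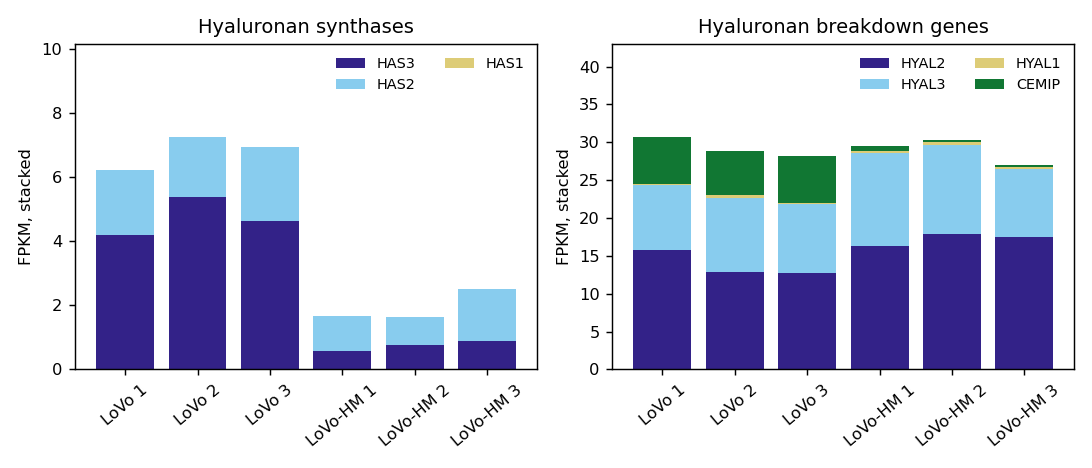
Stacked FPKM of the hyaluronan synthases (left) and of the hyaluronidases and CEMIP (right) in each of the 6 libraries, with each gene as a coloured part of the bar and bars starting at 0. The synthase bars reach 6.21 to 7.24 FPKM for LoVo but only 1.63 to 2.52 FPKM for LoVo-HM, whereas the breakdown bars have overlapping heights and lose the CEMIP part.

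In order of level, LoVo had CD44 and HMMR at the top with overlapping ranges, then HYAL2, HYAL3, CEMIP, HAS3, HAS2 and HYAL1, each range apart from the next. LoVo-HM had CD44, HMMR, HYAL2 and HYAL3 in the same order with ranges apart, followed by HAS2, HAS3, CEMIP and HYAL1, whose neighbouring ranges overlapped. CEMIP had a higher mean than 40.4% of the tested genes in LoVo and than 2.18% in LoVo-HM.

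**Figure D3:**
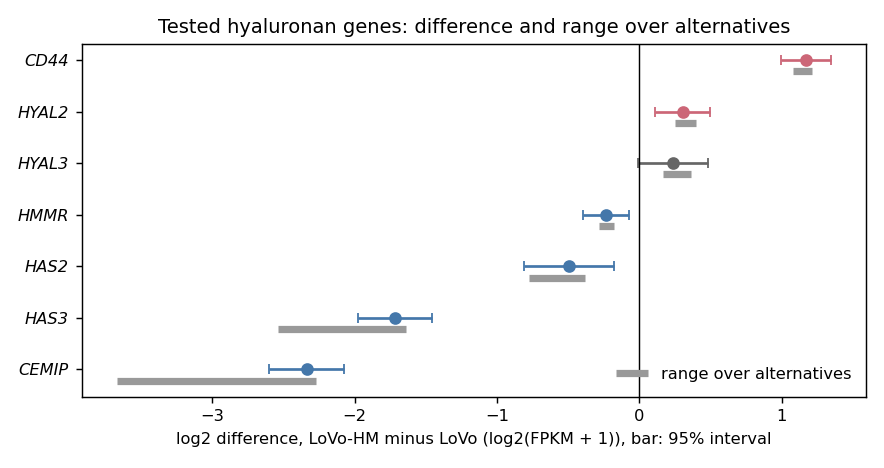
Log2 difference, LoVo-HM minus LoVo, on the log2(FPKM + 1) scale (x axis) for the 7 tested genes, with points and 95% intervals from limma, coloured red for higher, blue for lower and grey for not past the threshold. The thick grey bar under each point spans the log2 differences under all alternatives, pseudocounts of 0.1 and 0.5 included, and lies on the same side of 0 as the point for every gene.

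The promoter windows of the 3 genes with changes of at least 2-fold are shown because they moved in opposite directions, CD44 up and HAS3 and CEMIP down. Each window holds the 250 bases before the RefSeq start of the gene (GRCh38.p14), 5′ to 3′, with capitals marking matches on either strand to any of 7 motifs. The letters searched were TATAAA for the box of that name near many starts, CCAAT for the box bound by NF-Y, and GGGCGG for the SP1 box. The others were TGANTCA for the AP-1 site, CTTTGAT for a TCF/LEF site, CACCTG for the E-box that ZEB proteins bind, and TTTGAA for the cell cycle homology region (CHR).
CD44, chr11:35138921-35139170, plus strand: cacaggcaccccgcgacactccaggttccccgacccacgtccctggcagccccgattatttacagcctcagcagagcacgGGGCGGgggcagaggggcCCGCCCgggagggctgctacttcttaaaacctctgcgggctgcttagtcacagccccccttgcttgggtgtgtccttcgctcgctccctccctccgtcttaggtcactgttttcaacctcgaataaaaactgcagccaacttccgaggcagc
HAS3, chr16:69107290-69107539, plus strand: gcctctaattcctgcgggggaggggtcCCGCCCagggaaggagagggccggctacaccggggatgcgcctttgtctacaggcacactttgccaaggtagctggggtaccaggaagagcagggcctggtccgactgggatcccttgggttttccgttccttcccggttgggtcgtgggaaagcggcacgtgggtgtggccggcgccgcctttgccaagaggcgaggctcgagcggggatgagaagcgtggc
CEMIP, chr15:80779120-80779369, plus strand: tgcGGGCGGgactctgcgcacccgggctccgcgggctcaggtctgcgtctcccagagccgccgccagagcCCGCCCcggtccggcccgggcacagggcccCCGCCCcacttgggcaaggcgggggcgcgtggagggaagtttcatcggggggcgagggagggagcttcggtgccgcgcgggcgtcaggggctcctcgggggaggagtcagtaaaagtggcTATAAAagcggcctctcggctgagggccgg
The CD44 window held 2 SP1 boxes, the HAS3 window 1, and the CEMIP window 3 together with a TATA box 30 to 25 bases before the start. An SP1 box was present in 42.6% of the 35116 promoter windows of the reference and a TATA box in 10.7%. None of the AP-1, TCF/LEF, ZEB, CCAAT and CHR letters occurred in these 3 windows, against 6.57%, 2.26%, 17.5%, 32.0% and 13.3% of all windows. GENCODE 29 starts CD44, HAS3 and CEMIP earlier than RefSeq, so other starts of these genes exist, and a match or its absence is a description of these letters only.

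HMMR is also a gene of dividing cells, with a protein that helps to place TPX2 on the spindle, so its values were set beside mitotic genes. All 25 genes of a mitotic cell cycle list were tested, and 23 rose, none fell and 2 did not pass, beside 21.8% of all tested genes that rose. Over the alternatives 20 to 24 of the 25 rose and none fell. Their median log2 difference was 0.35 where the median over all tested genes was 0.003. CDKN3, a cell cycle phosphatase (0.90 ± 0.048), CENPF, a kinetochore protein (0.71 ± 0.054), and KIF20A, a kinesin of cytokinesis (0.52 ± 0.041), had the smallest p-values. MKI67, the proliferation marker, rose from 49.9 ± 1.55 to 64.4 ± 1.02 FPKM and CCNB1, the mitotic cyclin, from 117 ± 5.55 to 146 ± 1.86 FPKM. HMMR went the other way.

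Of 12 listed spindle partners of HMMR, 7 rose (58.3%, beside 21.8% of all tested genes), none fell and 5 did not pass, with a median of 0.20. The number that rose was 6 to 9 over the alternatives, and none fell. TPX2, which activates the kinase AURKA at the spindle, rose from 80.2 ± 1.58 to 94.4 ± 2.62 FPKM (0.23 ± 0.042), and AURKA itself from 37.1 ± 2.97 to 43.5 ± 1.06 FPKM (0.23 ± 0.063). NUMA1, a spindle pole protein, rose too (0.18 ± 0.053), a call lost without any one library other than LoVo-HM replicate 1 (limma adjusted p = 0.0558 to 0.0728), as did KIF11 (0.38 ± 0.069) and PLK1 (0.25 ± 0.049), while BRCA1 did not pass (0.15 ± 0.059, limma adjusted p = 0.0654). All 37 genes of both lists had a log2 difference above 0. The 95% interval of HMMR ended at -0.08, below the intervals of all 25 mitotic genes and of 11 of the 12 partners, the exception being BARD1. As a share of the mean level of the 25 mitotic genes, HMMR was at 88.9, 90.4 and 99.4% in LoVo and 62.2, 55.5 and 58.1% in LoVo-HM. No test of this share was made, since HMMR and the lists were chosen with results known.

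**Figure D4:**
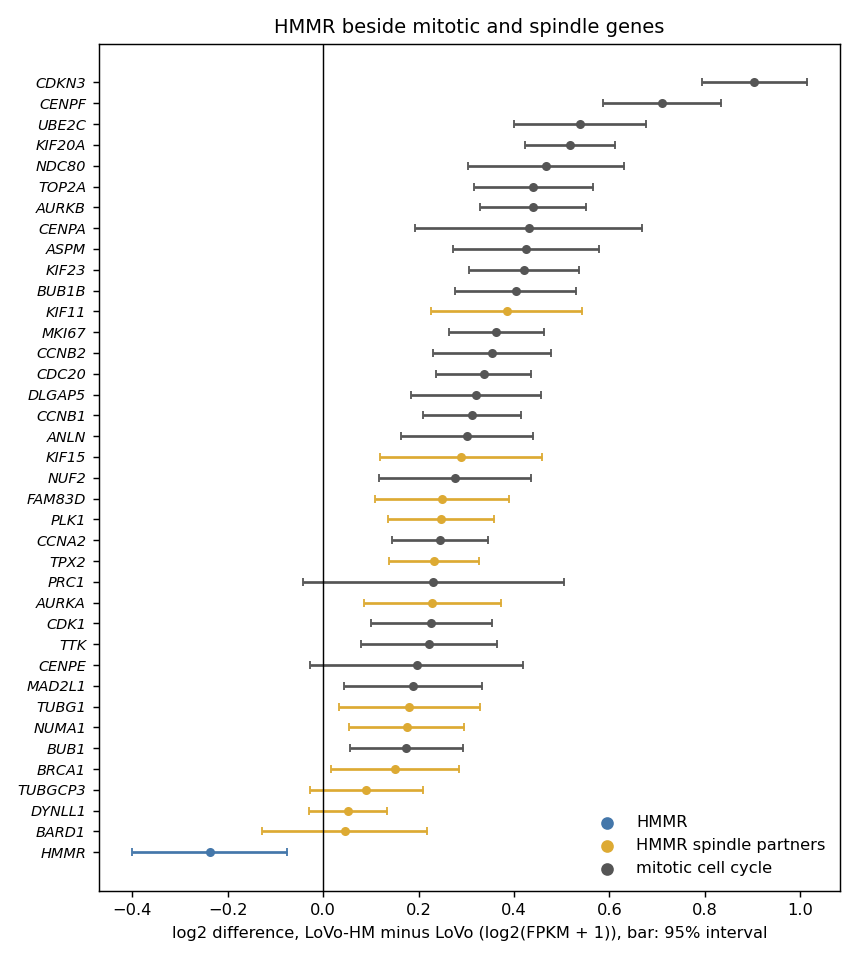
Log2 difference, LoVo-HM minus LoVo, on the log2(FPKM + 1) scale (x axis) with 95% intervals from limma for HMMR (blue), its 12 listed spindle partners (yellow) and 25 mitotic cell cycle genes (grey), sorted by value. HMMR, at -0.24, is the lowest point and the other 37 lie to the right of 0.

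The promoter window of HMMR is shown because it carries letters found in many mitotic promoters, with the same motifs and capitals as above.
HMMR, chr5:163460382-163460631, plus strand: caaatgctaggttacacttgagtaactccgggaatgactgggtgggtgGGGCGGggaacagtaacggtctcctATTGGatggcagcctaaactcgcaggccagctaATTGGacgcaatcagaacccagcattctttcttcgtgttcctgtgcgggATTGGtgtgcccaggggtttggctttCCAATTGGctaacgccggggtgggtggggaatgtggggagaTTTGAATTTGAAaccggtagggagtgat
It held 2 CHR elements, 28 to 17 bases before the RefSeq start and directly next to each other, 5 CCAAT boxes counted on both strands, of which the nearest pair to the start overlap, and 1 SP1 box. Among the 23 mitotic genes with a window, 13 held a CHR element and 18 a CCAAT box in any of their windows. Of all single windows 13.3% and 32.0% did. A gene can have several windows, so these shares were not counted alike. GENCODE 29 starts HMMR before this window, which lies within the annotated gene. The HMMR window thus held the same letters as many of the list, while the level of HMMR moved in the opposite direction.

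Hyaluronan is made from UDP-glucuronic acid and UDP-N-acetylglucosamine, and the listed enzymes that lead to these sugars were lower on balance. Of 12 genes 11 were tested, and 7 fell (63.6%, beside 23.1% of all tested genes), none rose and 4 did not pass, with a median of -0.27. UGDH, which makes UDP-glucuronic acid, fell from 19.4 ± 1.86 to 14.1 ± 1.18 FPKM (-0.43 ± 0.085, limma adjusted p = 0.00351). GFPT1, the entry enzyme of the hexosamine pathway, fell from 14.7 ± 0.931 to 12.0 ± 0.802 FPKM (-0.27 ± 0.071, not past the threshold without LoVo replicate 3, limma adjusted p = 0.0526), and UAP1, which makes UDP-N-acetylglucosamine, from 29.3 ± 0.197 to 22.2 ± 2.10 FPKM (-0.39 ± 0.068). The hexokinases HK1 (-0.72 ± 0.044) and HK2 (-0.67 ± 0.055) and the phosphoglucomutase PGM1 (-0.48 ± 0.082), which also serve glycolysis and glycogen, had the smallest p-values. UGP2, which makes UDP-glucose, did not pass (-0.10 ± 0.068), and GFPT2 was too low to test, at 0.180 ± 0.0316 and 0.237 ± 0.129 FPKM. With quantile normalization and without LoVo-HM replicate 1, 1 gene of the list rose beside 7 that fell. The number that fell was 5 to 7 over all alternatives.

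The fall of CEMIP was not seen in the other genes of hyaluronan breakdown described here. CEMIP2, a membrane relative of CEMIP, rose from 5.31 ± 0.363 to 7.24 ± 0.140 FPKM (0.38 ± 0.072, limma adjusted p = 0.00254), so that it was near CEMIP in LoVo and well above it in LoVo-HM. GUSB and HEXA, lysosomal enzymes that act on the fragments, did not pass, with GUSB at 25.2 ± 1.34 and 27.4 ± 0.105 FPKM and HEXA at 25.4 ± 3.38 and 25.5 ± 3.54 FPKM. SPAM1, the sperm hyaluronidase, was listed at 0 in every library and HYAL4 was at most 0.0237 FPKM.

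Apart from CD44 and HMMR, most listed receptors and binding proteins of hyaluronan were at or near 0. Of 26 genes 5 were tested, 10 were listed at 0 in every library and the highest value of an untested gene was 0.303 FPKM. LYVE1, the receptor of lymphatic vessels, TLR4, an innate immune receptor, and TNFAIP6, which cross-links hyaluronan, were among those at 0, and STAB1, STAB2, LAYN and VCAN had means of at most 0.0771 FPKM. Of the 5 tested, 4 fell, none rose and C1QBP did not pass, where 23.1% of all tested genes fell. BCAN, a brain proteoglycan that binds hyaluronan, fell from 5.18 ± 0.372 to 0.0564 ± 0.0412 FPKM (-2.55 ± 0.095, limma adjusted p = 1.32e-07) and passed the filter only through LoVo. TLR2, an innate immune receptor, fell from 6.25 ± 0.417 to 2.98 ± 0.230 FPKM (-0.86 ± 0.083), HAPLN3, a link protein of hyaluronan and proteoglycans, from 10.2 ± 0.563 to 6.93 ± 0.270 FPKM (-0.49 ± 0.068), and HABP4 by 0.42 ± 0.060 on the log2 scale.

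The proteins that tie the tail of CD44 to the cytoskeleton went both ways. All 11 listed linkers were tested, and 6 rose, 3 fell and 2 did not pass, with a median of 0.16, and 81.8% were called beside 44.9% of all tested genes. EPB41L3, which fell from 1.06 ± 0.522 to 0.0804 ± 0.0428 FPKM, passed the filter only through LoVo. With a minimum mean of 2 FPKM, 6 of 9 rose, 2 fell and the median was 0.31. Of the ERM proteins, which bind the tail of CD44 to actin, RDX rose from 10.9 ± 1.00 to 19.6 ± 0.650 FPKM (0.79 ± 0.072, limma adjusted p = 3.77e-05), EZR from 222 ± 3.12 to 247 ± 1.19 FPKM (0.16 ± 0.034), and MSN did not pass, at 29.3 ± 0.984 and 28.5 ± 0.751 FPKM. Ankyrins differed in direction, with ANK1 rising from 11.2 ± 0.439 to 32.1 ± 0.319 FPKM (1.44 ± 0.053) and ANK3 falling from 12.8 ± 0.977 to 6.88 ± 1.50 FPKM (-0.82 ± 0.131). SLC9A3R1, an ERM-binding scaffold, fell (-0.40 ± 0.052).

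Among the proteases that cut CD44, 9 of 10 genes were tested, and 1 rose, 2 fell and 6 did not pass, with a median of -0.10. The share called was 33.3%, beside 44.9% of all tested genes. The one that rose was ADAM10, a main sheddase of CD44, from 11.1 ± 0.516 to 29.9 ± 1.49 FPKM (1.36 ± 0.061, limma adjusted p = 4.22e-07). MMP14, a membrane metalloproteinase, fell from 13.0 ± 0.304 to 9.61 ± 0.127 FPKM (-0.40 ± 0.056), and ADAM17 did not pass, at 6.03 ± 0.461 and 6.32 ± 0.340 FPKM. The gamma-secretase subunit APH1B fell (-0.28 ± 0.082), a call lost with quantile normalization (limma adjusted p = 0.0971) and without LoVo replicate 1 (0.0579), LoVo replicate 2 (0.0749), LoVo-HM replicate 1 (0.0688) or LoVo-HM replicate 3 (0.0598). CD44 and its sheddase ADAM10 were thus both higher in LoVo-HM.

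Factors reported to act on the variable exons of CD44 or its splicing were tested in full. Of the 13, 8 rose, 3 fell and 2 did not pass, beside 21.8% of all tested genes higher and 23.1% lower. Their median was 0.17. Over the alternatives 6 to 9 rose and 2 to 3 fell, with 6 higher, 2 lower and 5 not past without a variance trend. The epithelial regulators that favour variant exons fell, ESRP1 from 4.89 ± 0.750 to 2.03 ± 0.495 FPKM (-0.97 ± 0.144, limma adjusted p = 0.000758) and ESRP2 from 17.0 ± 1.05 to 11.7 ± 1.14 FPKM (-0.51 ± 0.081). TRA2B (0.46 ± 0.051) and KHDRBS1, also called SAM68 (0.41 ± 0.047), which are reported to favour variant exons too, rose, and so did HNRNPM (0.27 ± 0.036), reported to favour their skipping. Whether the isoforms of CD44 differed between the lines was not measured.

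Co-receptors and ligands of CD44 had 8 of 10 genes tested, with 3 higher, 4 lower and 1 not past the threshold, 87.5% called beside 44.9% of all tested genes. CD74, a receptor that signals with CD44, fell from 606 ± 18.9 to 7.62 ± 0.268 FPKM (-6.14 ± 0.046), EGFR from 21.9 ± 0.0161 to 7.46 ± 0.390 FPKM (-1.44 ± 0.059) and MET, for which CD44 variants can act as co-receptor, from 93.0 ± 1.44 to 51.2 ± 1.18 FPKM (-0.85 ± 0.041). SPP1, the secreted ligand osteopontin, had no LoVo library above 0 and stood at 1.50 ± 0.361 FPKM in the subline, so it passed the filter only through LoVo-HM. Also higher were BSG, from 454 ± 18.3 to 563 ± 13.8 FPKM (0.31 ± 0.041), and SLC7A11, from 2.56 ± 0.0334 to 4.09 ± 0.208 FPKM (0.52 ± 0.077). With a minimum mean of 2 FPKM, 2 of 7 genes of the list were higher and 4 lower.

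**Figure D5:**
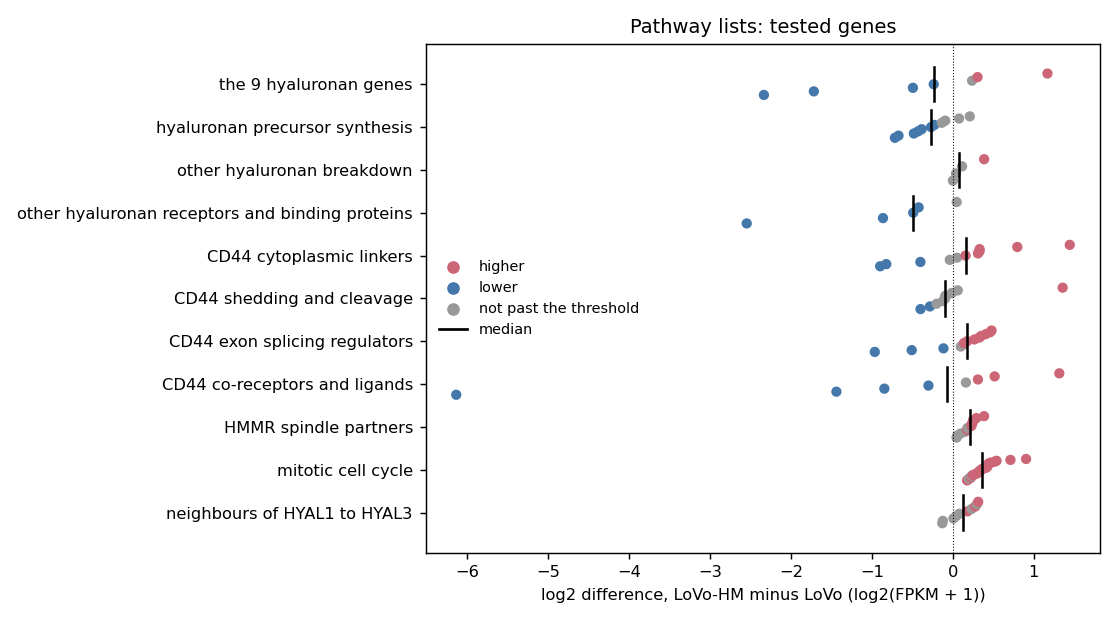
Log2 difference, LoVo-HM minus LoVo, on the log2(FPKM + 1) scale (x axis) of each tested gene in the 9 hyaluronan genes and 10 lists (rows), red for higher, blue for lower and grey for not past the limma threshold, with the median of each row as a black line. Precursor enzymes lie mostly left of 0 (median -0.27) and mitotic genes right of 0 (median 0.35), and CD74 is the point at -6.14.

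Genes whose pattern over the 6 libraries was most like that of each gene were ranked by the root mean square difference of centred log2(FPKM + 1) values, among genes averaging 5 FPKM or more. This is a description with no test, and 6 libraries in 2 groups leave many genes with like patterns. CD44 was nearest to STOX2 (0.041), ATMIN (0.065) and JAG1 (0.065), and HMMR to VPS13A (0.021), ABI1 (0.027) and IPPK (0.029). HAS3 was nearest to APOL1 (0.058), AHR (0.090) and BICDL2 (0.095), HAS2 to FAM192A (0.041), and CEMIP to S100A16 (0.096). HYAL2 was nearest to EPB41 (0.034), which is also on the list of CD44 linkers, and HYAL3 to SLC41A3 (0.038).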

How the data were processed

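Total RNA of 3 LoVo and 3 LoVo-HM libraries was extracted with Trizol and prepared with a TruSeq RNA kit, per the labels' protocols. The deposited file holds FPKM values, 1 column per library, and the submitters' processing notes name GRCh38 as genome. Not given in the sources used here are the aligner, the counter, the annotation, the strand setting and the depth. Low values showed no steps worth 1 read. All 19974 Ensembl identifiers matched GENCODE 29, which gave positions. Promoter sequences were taken at RefSeq starts for 8 of the 9 genes, and HAS2 was left out.

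Values were used as deposited, as log2(FPKM + 1), for genes averaging 0.5 FPKM or more, and the lines were compared by limma 3.58.1 (R 4.3.3) with a variance trend and two-sided tests. The fit was tested on data simulated with independent normal noise, which the fit itself assumes, so whether these libraries meet that assumption was not tested. The genes, lists and motifs were chosen with earlier results of these data known. Named are the 9 genes, fixed members of each list, up to 3 tested members of a list with the smallest p and the genes of most similar pattern. Some genes that the rule names are not reported here. Names outside this rule were chosen after values were seen or because they overlap a gene. The alternatives were pseudocounts of 0.1 and 0.5, no filter or a mean of 2 FPKM, 3 other scalings, 2 other variance fits, a block for the replicate number, and omission of each library, with the genes tested kept the same unless the filter itself was changed. Replicate numbers are shared by the groups, but the correlations of deviations from group means between same-numbered libraries did not show pairing.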

Additional observations from a re-analysis of the deposited data

How the results depend on the processing

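The log2 differences of CD44, HAS3 and CEMIP kept their direction and their side of the threshold under all 16 alternatives, with ranges of 1.08 to 1.21, -2.54 to -1.64 and -3.67 to -2.27. Among the 9 genes, no difference of a tested gene changed sign. HMMR was no longer called without a filter (-0.24, limma adjusted p = 0.0511) or without a variance trend (-0.24, adjusted p = 0.0509). When each library was left out, values ran from -0.28 to -0.18 for HMMR, -0.63 to -0.39 for HAS2, 0.25 to 0.40 for HYAL2 and 0.16 to 0.36 for HYAL3, with 3, 3 and 4 calls lost and, for HYAL3, 1 gained. With a pseudocount of 0.1 the untested difference of HYAL1 moved from 0.12 to 0.42, and the genes past the threshold and at least 2-fold rose from 950 to 1528, because a smaller pseudocount widens the log2 differences of low genes. HAS2 had no value with a minimum mean of 2 FPKM. HAS1 and HYAL1 had no value under the alternatives that refit the tested genes only, such as quantile normalization.

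Same-numbered libraries of the groups had correlations of deviations of -0.01, 0.02 and 0.03, so the numbers are not shown to pair them. With the replicate block 6459 genes were called in place of 6508, and no call of the 9 genes changed (CD44 1.17, HMMR -0.24, HAS2 -0.49, HAS3 -1.72, HYAL2 0.30, HYAL3 0.24 and CEMIP -2.34). Some libraries correlated best with another number. Read depth is unknown, so counting error could not be given, and it bears most on HAS2, HYAL1 and, in LoVo-HM, HAS3 and CEMIP.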
